A study of Homo sapiens with 16 samples.

Results

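Single TOP2A peaks on lasting RNA polymerase II (Pol II) are sites where DNA topoisomerase II alpha (TOP2A) was called alone and where Pol II was called before and after the enzyme was blocked. They were chosen by position: a TOP2A peak that overlaps by at least 1 bp a Pol II peak in each of the 3 Pol II lists and has no other TOP2A peak within 1 kb. By this rule 955 of the 1840 TOP2A peaks were members, that is 51.9%. Another 397 TOP2A peaks lay on Pol II in all 3 lists with a second TOP2A peak within 1 kb, and 365 lay on no Pol II peak of any list.

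The cells were hTERT RPE-1, wild-type human cells from the retinal pigment epithelium that telomerase has made immortal, held for 48 h in 0.1% serum in every group. The Pol II control list stands for 3 libraries given vehicle (DMSO) for 30 min and 3 untreated ones. The 2 merbarone lists (200 µM) come from 3 libraries at 30 min and 2 at 1 h, and both are set against that 1 control list. TOP2A came from 2 untreated libraries. No TOP2A list under merbarone was used, so every statement on TOP2A is about untreated cells. Vehicle lasted 30 min, so none matches the 1 h treatment. The antibody against Pol II binds its largest subunit. Each condition has 1 list of peaks without scores or replicates, so widths and edges are described and not tested between conditions, and depth is unknown. The lists hold no RNA levels, so the cell type was not checked against marker genes.

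As it transcribes, Pol II overwinds the DNA ahead of it and underwinds the DNA behind it. TOP2A removes such supercoils by passing one DNA duplex through a cut in another. Merbarone blocks topoisomerase II before the cut, unlike poisons that trap the cut DNA. At many animal genes Pol II initiates and then halts shortly downstream of the start, at the promoter-proximal pause, before it is released into the gene.

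Gene names below rest on hg19 positions from general knowledge. They were used only where the offset of an end against RefSeq genes of GRCh38.p14 matched a neighbour's or the other end's. The tolerance was 500 bp, so distances to a start are approximate. Of the members, 397 (41.6%) lay on such a gene or within 1 kb upstream of it. Coordinates of TOP2A peaks are those deposited, in hg19. For distances to a gene's start, only 233 genes listed without looking up the members' positions were used. Of these, 61 (26.2%) carried 1 member or more. Their 72 members had a median place 712.5 bp downstream of the outermost known start, with quartiles at 341.5 and 2004 bp. There were 7 members within 1 kb upstream of the start, 18 less than 500 bp downstream, 22 from 500 bp to under 1 kb, 7 from 1 kb to under 2 kb, 11 from 2 kb to under 10 kb and 7 at 10 kb or more. The first 2 kb of the gene thus held 47 of the 72 (65.3%). The rule did not use gene starts, but it used Pol II peaks, whose own places along these genes were not counted.

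Starts were checked only to within 500 bp, so whether a TOP2A peak lies inside a window of 250 bases is not certain. By the hg19 starts used, the TOP2A midpoint at RHOA, SMAD3 and ERRFI1 fell in the 250 bases just upstream of the start. The letters of that window are therefore given, from RefSeq (GRCh38.p14), 5′ to 3′ along the gene, 250 bases each. RHOA, a small GTPase that builds actin stress fibres, had its TOP2A midpoint 96 bp upstream of the start (window chr3:49411977-49412226, minus strand). SMAD3, a transcription factor of TGF-beta signalling, had it 72 bp upstream (window chr15:67065352-67065601, plus strand). ERRFI1, an inhibitor of the EGF receptor, had it 44 bp upstream (window chr1:8026310-8026559, minus strand). BAG3, a co-chaperone of HSP70, is shown because its Pol II peak is among the 10 that widened most at 30 min. Its TOP2A midpoint lay 810 bp downstream of the start, outside the window (chr10:119651130-119651379, plus strand). Capitals mark matches on either strand to 6 short motifs. The first is the GC box, spelled GGGCGG. The next is the box known by its letters as CCAAT. The TATA box was searched as TATAAA. The site of AP-1 factors was searched as TGACTCA. The cyclic AMP response element was searched as TGACGTCA, and a pair of heat shock units as GAANNTTC. Where matches touch or overlap, their capitals run together.
RHOA upstream window: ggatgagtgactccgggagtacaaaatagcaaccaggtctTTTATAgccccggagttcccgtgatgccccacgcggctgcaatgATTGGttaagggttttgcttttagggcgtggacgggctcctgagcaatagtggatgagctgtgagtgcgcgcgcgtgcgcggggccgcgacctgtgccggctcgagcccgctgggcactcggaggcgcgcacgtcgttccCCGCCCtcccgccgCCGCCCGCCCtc
SMAD3 upstream window: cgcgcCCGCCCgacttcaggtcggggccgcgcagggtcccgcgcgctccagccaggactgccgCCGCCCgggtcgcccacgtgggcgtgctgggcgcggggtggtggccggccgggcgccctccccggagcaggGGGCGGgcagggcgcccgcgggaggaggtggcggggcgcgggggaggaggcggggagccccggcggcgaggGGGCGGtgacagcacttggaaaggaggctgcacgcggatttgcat
ERRFI1 upstream window: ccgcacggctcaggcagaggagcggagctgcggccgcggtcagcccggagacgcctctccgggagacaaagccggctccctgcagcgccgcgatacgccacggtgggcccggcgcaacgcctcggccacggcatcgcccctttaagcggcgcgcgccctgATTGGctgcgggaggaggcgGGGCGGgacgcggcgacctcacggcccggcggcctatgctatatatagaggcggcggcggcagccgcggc
BAG3 upstream window: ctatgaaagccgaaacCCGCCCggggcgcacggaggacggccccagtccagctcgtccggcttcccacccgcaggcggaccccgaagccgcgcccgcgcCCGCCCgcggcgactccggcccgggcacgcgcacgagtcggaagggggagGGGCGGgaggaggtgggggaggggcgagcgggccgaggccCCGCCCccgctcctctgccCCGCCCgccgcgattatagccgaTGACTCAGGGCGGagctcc
The RHOA window held 3 GC boxes, 1 CCAAT box and 1 TATA box match, and the ERRFI1 window held 1 GC box and 1 CCAAT box. The SMAD3 window held 4 GC boxes. The BAG3 window held 6 GC boxes and 1 AP-1 match, of which the last GC box directly follows the AP-1 match. Over the 38 genes of the start-checked set with a member within 1 kb of the start and a sequence, 29 (76.3%, 95% Wilson interval 60.8 to 87.0%) held a GC box. Among 120 genes of that set without any TOP2A peak, 83 did (69.2%, 60.4 to 76.7%), and among all 27305 windows 42.3% did. Both gene sets were picked as well-known genes. A TATA box match stood in 6 of the 38 windows (15.8%), against 22.5% of the 120 and 11.1% of all windows. A CCAAT box stood in 13 of the 38, in 48 of the 120 and in 33.0% of all windows. For the AP-1 site the shares were 2.63%, 5.83% and 4.16%, and for the cyclic AMP response element 2.63%, 6.67% and 1.77%. The heat shock pair stood in 1 of the 38, in 12 of the 120 and in 5.85% of all windows. The windows of genes with and without TOP2A had a median G+C content of 70.8% and 65.6%, with overlapping intervals (63.6 to 75.2% and 62.4 to 67.6%). These matches are letters in a window, not bound sites.

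TOP2A peaks of the members were narrow. Their median width was 86 bp, with quartiles at 73 and 109 bp and a maximum of 276 bp. The smallest width in the list, 73 bp, was held by 258 members. Clustered TOP2A peaks on lasting Pol II had a median of 98 bp. The widest member lay at chr1:86046667-86046942 on CCN1, an immediate-early gene for a secreted matrix protein, and was 276 bp wide. The next were a 268 bp peak at chr9:66458253-66458520, then peaks on ABTB2 (254 bp), on TGFB2 (251 bp), which encodes a TGF-beta ligand, and on SLC12A2 (237 bp), which encodes an ion cotransporter. The members closest to the rule's limit had their next TOP2A peak 1009 bp away on chromosome 18 and 1051 bp away on chromosome 10, where both peaks of the pair are members. Just outside the limit, peaks lay 989 bp from the next on chromosome 10 and 930 bp apart on chromosome 2.

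The 955 members lay on 939 Pol II peaks in control, 938 at 30 min and 931 at 1 h. In control 919 members were the sole TOP2A peak on their Pol II peak, at 30 min 918 and at 1 h 904. The whole TOP2A peak fell inside the Pol II peak for 915 members in control, 926 at 30 min and 932 at 1 h, and for 884 in all 3 lists. The host Pol II peaks were wide: 933 members (97.7%) in control lay on a peak at or above that list's median width of 242 bp. A wide peak also offers more room to be overlapped, so width is not independent of how members were chosen.

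Within its Pol II peak the TOP2A midpoint lay more often near the centre than near the ends. An even spread would put about 60% of members in the middle 60% of the peak. The rule itself favours central places, because it drops TOP2A peaks near an end that no longer reached them in another list. How much it does so was not computed. In control 729 members (76.3%, 95% Wilson interval 73.5 to 78.9%) fell in the middle 60% of the peak, at 30 min 711 (74.5%, 71.6 to 77.1%) and at 1 h 727 (76.1%, 73.3 to 78.7%). With each Pol II peak cut into 10 equal bins, the 2 at the centre held 137 and 139 members in control and the 2 at the ends 34 and 33. The share in the middle changed little with the width of the control peak: it was 72.2% under 500 bp, 78.9% from 500 bp to under 1 kb, 79.1% from 1 kb to under 2 kb and 71.1% at 2 kb or more, with overlapping intervals for the first and last of these (62.2 to 80.4% and 65.2 to 76.4%). In base pairs the median distance from the TOP2A midpoint to the nearer end was 397 bp in control (95% order-statistic interval 373.5 to 426.5 bp), 426 bp at 30 min (402.5 to 451.5 bp) and 546.5 bp at 1 h (505 to 576.5 bp). At 1 h, 514 members lay 500 bp or more from the nearer end, against 360 in control.

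**Figure D1:**
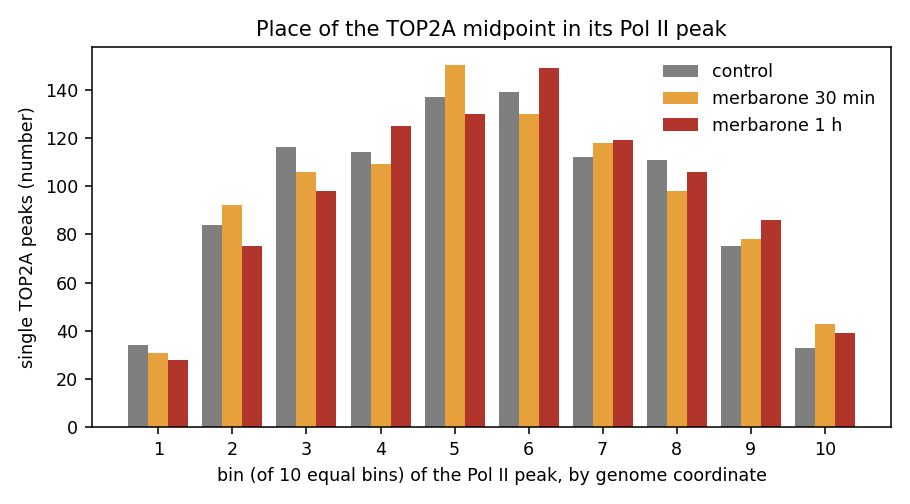
Number of single TOP2A peaks (vertical axis) by the bin of their Pol II peak, of 10 equal bins along the genome coordinate, in which the TOP2A midpoint falls (horizontal axis), for control, merbarone 30 min and merbarone 1 h. In all 3 lists the bars are lowest in the end bins (34 and 33 in control) and highest in the central bins (137 and 139 in control).

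The median width of the host Pol II peaks was 1335 bp for control, with quartiles at 881.5 and 2051 bp. After 30 min it was 1455 bp, with quartiles at 1003.5 and 2204.5 bp, and after 1 h it was 1738 bp, with quartiles at 1160.5 and 2903.5 bp. Peaks of 10 kb or more held 19 members in control, 13 at 30 min and 46 at 1 h, and peaks under 500 bp held 90, 68 and 49. The widest host peak measured 30505 bp in control, 31926 bp after 30 min and 39899 bp after 1 h.

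**Figure D2:**
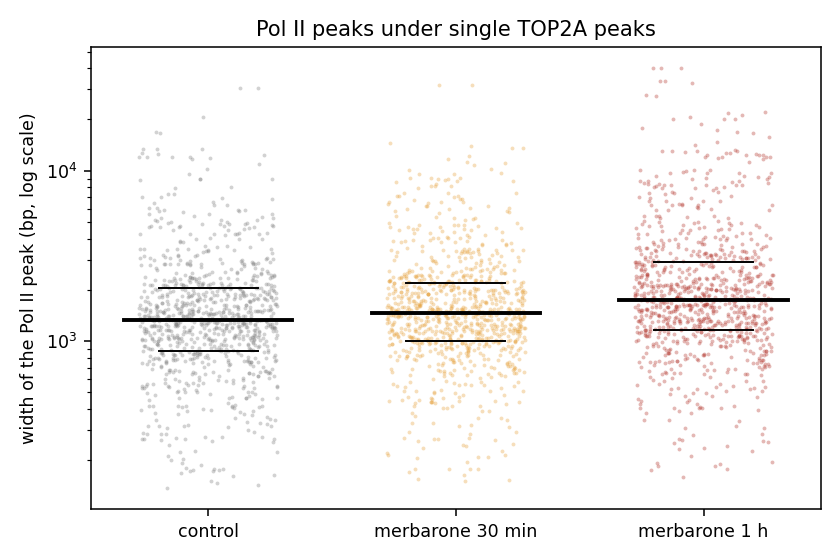
Width in bp of the Pol II peak that holds each of the 955 members (vertical axis, log scale) in control, merbarone 30 min and merbarone 1 h. Each point is a member, the thick line is the median (1335, 1455 and 1738 bp) and the thin lines are quartiles; the upper part of the 1 h cloud reaches higher.

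Per member, the change at 30 min was small and mixed, and at 1 h most host peaks were wider. The median log2 ratio of widths was 0.05 at 30 min against control (interval 0.03 to 0.06) and 0.26 at 1 h against control (0.24 to 0.31). At 30 min 576 members had a wider Pol II peak and 378 a narrower one, and at 1 h 781 and 173. A peak at least 1.5-fold wider was seen for 109 members at 30 min (11.4%, 9.55 to 13.6%), where 43.2% of all control Pol II peaks found at that time were called so. At 1 h it was seen for 269 members (28.2%, 25.4 to 31.1%), against 64.2% of all control peaks found then. A peak at least 1.5-fold narrower was seen for 55 members at 30 min (5.76%), against 8.92% of all, and for 27 at 1 h (2.83%), against 3.84% of all. The peak of a member is the one over TOP2A, but in the background each control peak is paired with the one sharing most bases. Paired that way, 46 of the 939 host peaks (4.9%) were at least 1.5-fold narrower at 30 min and 22 (2.34%) at 1 h. The 1 h list has no gap under 38 bp between peaks and fewer very narrow peaks, while the control list has gaps down to 1 bp and widths down to 136 bp. All lists were therefore also held to the smallest gap and width of the 1 h list, by joining closer peaks and leaving out narrower ones (like limits below). With like limits the median at 1 h was 0.19, the share at least 1.5-fold wider was 23.2%, and 41 members were at least 1.5-fold narrower.

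The background holds mostly narrow peaks, so members were also set beside the 57007 lasting control Pol II peaks without TOP2A, by class of control width. Within a class widths were not matched, and the median control width was 346 bp without TOP2A and 1315 bp for host peaks. Of the 939 host peaks, 90 were under 500 bp wide in control, and 67.8% of these (57.6 to 76.5%) were at least 1.5-fold wider at 1 h, against 77.7% of 36131 peaks without TOP2A. From 500 bp to under 1 kb the shares were 31.7% of 199 (25.6 to 38.4%) against 46.4%, and from 1 kb to under 2 kb 18.2% of 417 (14.8 to 22.2%) against 32.2%. At 2 kb or more they were 27.5% of 233 (22.1 to 33.5%) against 37.1%. At 30 min the same classes gave 51.1%, 15.6%, 5.52% and 4.29% of host peaks, against 57.7%, 26.1%, 15.8% and 14.7% of peaks without TOP2A. Host peaks had the lower share in all 4 classes at both times. With like limits, counted over members, the same order held in every class, for instance 15.8% against 26.9% from 1 kb to under 2 kb at 1 h. Under 500 bp at 30 min, the interval of the host peaks (41.0 to 61.2%) covers the share of peaks without TOP2A. The median log2 ratio at 1 h, from the narrowest class to the widest, was 1.16, 0.35, 0.19 and 0.25 for host peaks, against 1.83, 0.48, 0.28 and 0.33 for peaks without TOP2A. At 30 min it was 0.60 under 500 bp for host peaks, against 0.85. From 500 bp to under 1 kb at 30 min host peaks had the higher median, 0.13 against 0.10. Lasting Pol II peaks that held clustered TOP2A only numbered 191, and 40.3% of them (33.6 to 47.4%) were at least 1.5-fold wider at 1 h. By class, from narrowest to widest, this was 65.4% of 26, 39.3% of 28, 30.4% of 79 and 43.1% of 58. In the widest class (31.2 to 55.9%) the share was above that of peaks without TOP2A, and in the others below it. In every class, though, the interval for clustered TOP2A covers the share of peaks without TOP2A. With 1 list per condition no test of these differences was possible.

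**Figure D3:**
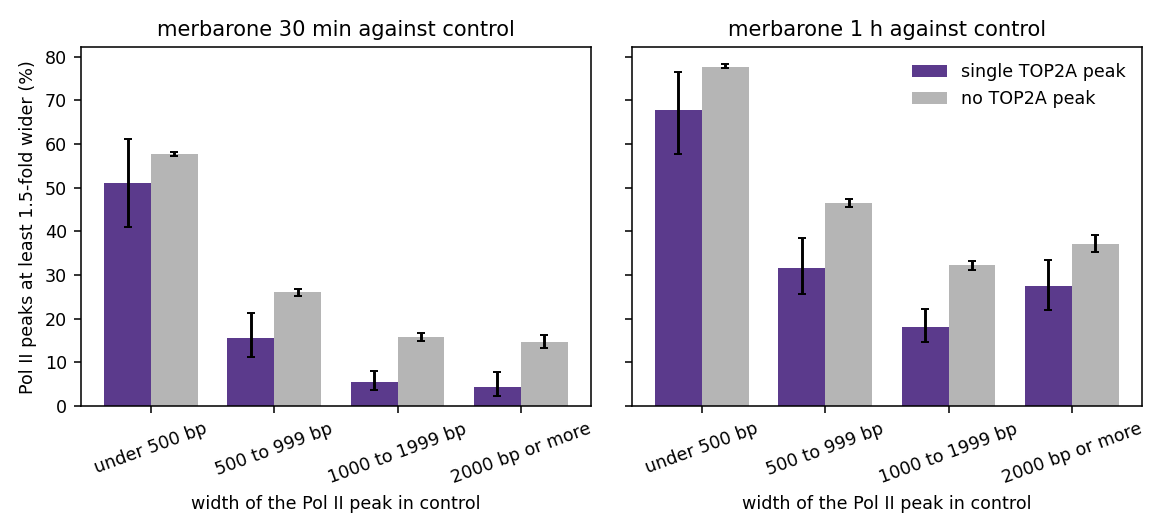
Share of Pol II peaks at least 1.5-fold wider than in control (vertical axis, %) at merbarone 30 min and 1 h, by control width (horizontal axis), for peaks with a single TOP2A peak and lasting peaks with no TOP2A peak. Bars start at 0 and error bars are 95% Wilson intervals of counting error; the bar with TOP2A is lower in each class, for example 18.2% against 32.2% from 1 kb to under 2 kb at 1 h.

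Over time, 406 members had peaks that were wider at each step, from control to 30 min and again to 1 h. Another 262 were narrower at 30 min than in control and wider at 1 h than in control. Of the 269 members at least 1.5-fold wider at 1 h, 88 were so at 30 min already, 164 were within 1.5-fold then and 17 were at least 1.5-fold narrower. Medians over these 269 were 1083 bp for control, 1580 bp after 30 min and 2785 bp after 1 h. From 30 min to 1 h, 202 members gained 1.5-fold or more and 34 lost as much.

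The ends of the Pol II peak moved on both sides of TOP2A. The near edge is the end of the control peak closer to the TOP2A midpoint, and shifts are counted positive outward. At 30 min the median shift was 18 bp for the near edge (12 to 30 bp) and 1 bp for the far edge (-5 to 10 bp). At 1 h it was 102 bp (86 to 117 bp) for the near edge and 81 bp (67 to 99 bp) for the far edge. At 1 h 480 near edges (50.3%) and 445 far edges (46.6%) had moved outward by 100 bp or more, against 55.8% of the edges of all control peaks found then. At 30 min these were 273 (28.6%) and 214 (22.4%), against 36.8% of all edges. Inward moves of 100 bp or more were seen at 131 near and 188 far edges at 30 min, where 14.4% of all edges moved so, and at 71 near and 115 far edges at 1 h, where 8.94% did. Edges of all control peaks are paired by most shared bases and those of members by TOP2A, so they can differ where a peak splits. The near edge has little room to move inward, because the rule keeps Pol II over the TOP2A peak in every list.

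Both edges moved outward by 100 bp or more for 244 members at 1 h (25.5%), against 68 at 30 min (7.12%). Only the near edge did so, with the far edge still, for 192 members at 1 h, and only the far edge for 171. Both edges stayed within 100 bp for 330 members at 30 min and 175 at 1 h. Where TOP2A lay under 200 bp from the control edge (206 members), the near edge moved outward by a median of 172 bp at 1 h and the far edge by 44 bp. Where it lay 1000 bp or more from both ends (111 members), the medians were 269 and 344 bp (78 to 471 and 176 to 701 bp). Under 200 bp the near edge had least room to move inward, because the rule keeps Pol II over TOP2A in every list. The contrast of near and far edges in that class is thus partly set by the rule.

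**Figure D4:**
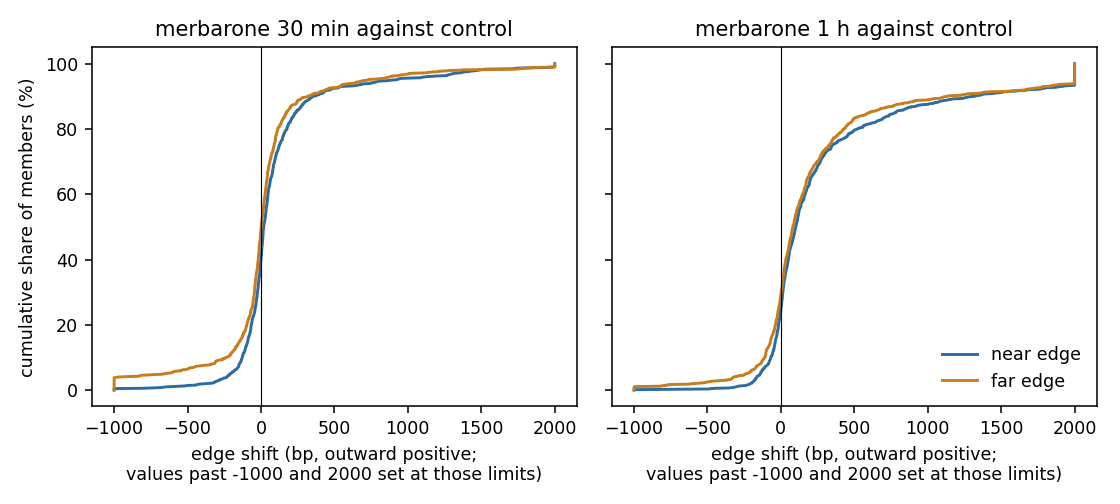
Cumulative share of the 955 members (vertical axis, %) by the shift of the near and far edge of their Pol II peak in bp (horizontal axis, outward positive), at 30 min and 1 h against control. Shifts beyond the ends of the axis are set at its ends. The medians are 18 and 1 bp at 30 min and 102 and 81 bp at 1 h.

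At 1 h the downstream edge of members moved farther along genes than the upstream edge. For 54 members within 2 kb of the start of a gene of the start-checked set, the downstream edge at 1 h lay a median of 538 bp farther out than in control (279 to 692 bp) and the upstream edge 102 bp farther (25 to 188 bp). The downstream edge had moved out by 1000 bp or more for 16 of the 54 and the upstream edge for 6. At 30 min the medians were 7 and 16 bp, with intervals that span 0. Over all 301 members within 2 kb of a known start, which include genes added because they lay close, the medians at 1 h were 215 bp downstream and 51 bp upstream. The direction of the gene was not used in choosing members, but no test was possible with 1 list per condition. Shifts at gene starts without TOP2A were not computed, so the difference is not shown to be particular to members. Members that share a host peak were each counted.

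Much of the width added at members was Pol II already present as separate peaks. At 1 h the 931 host peaks, each counted once, held 923811 bp outside the control peak of the member (of the first, where members share a host peak), and 607701 bp of this (65.8%) had been covered by other control Pol II peaks. Among the 269 members at least 1.5-fold wider, 238 (88.5%) had a 1 h peak that joined 2 or more control peaks, up to 18, and 72.5% of the added bases had been under control Pol II. At 30 min, 95 of the 109 widened peaks joined 2 or more control peaks, and 80.7% of the added bases had been under control Pol II. These counts describe where calls were continuous, not how much Pol II was bound. The same shares were not computed for peaks without TOP2A, so whether they are particular to members is not known.

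Narrowing at 30 min was mostly a split. For the 55 members at least 1.5-fold narrower, the control span remained covered by Pol II peaks over a median of 90.7% of its length (82.0 to 95.4%), and in 45 of them it was covered by 2 to 5 separate peaks. At 1 h, 38 of the 55 had a peak at least as wide as in control, and medians over the 55 were 1841 bp for control, 711 bp after 30 min and 2153 bp after 1 h. With like limits 34 of the 55 were narrower by the same measure. The 27 members narrower at 1 h were also split in 19 cases, with a median of 83.4% of the control span covered (63.5 to 91.6%), and all 27 were narrower with like limits too, where 41 members were.

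The rises at 30 min were led by short control peaks beside TOP2A that became part of longer ones. At DBNL, which encodes an actin-binding adaptor, the host peak of the member at chr7:44100659-44100731 measured 325 bp in control, 9029 bp after 30 min and 764 bp after 1 h. FOXP1, a forkhead repressor gene, had 148 bp, 2815 bp and 6161 bp at chr3:71630584-71630663. PHF2, a histone demethylase gene, had 173 bp, 2424 bp and 407 bp. These 3 were the largest rises at 30 min, and only at FOXP1 was the 1 h peak the widest of its 3 times.
At BAG3, whose promoter letters stand above, the peak around chr10:121411651-121411733 measured 151 bp in control, 1901 bp after 30 min and 2037 bp after 1 h. The 1 h peak joined 3 control peaks, and 1613 of the 1886 bp added at 1 h had been under control Pol II. FOXP1 and BAG3 drop out with like limits, because their control peaks are narrower than any peak of the 1 h list. The other 6 of the 10 largest rises at 30 min lay at PDZD8 (9.48-fold), chr8:23387085-23387205 (8.75-fold), TBX2, FAM20C, NRIP1 and ARHGAP10, with control peaks of 162 to 316 bp. With like limits the log2 ratio at 30 min was 0.36 at TBX2, still wider but by less than 1.5-fold, and -0.14 at ARHGAP10, the opposite direction. At 1 h it was -0.28 at TBX2 and -0.21 at ARHGAP10, where both were wider as deposited.

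The largest rise at 1 h was at FOXP1 (41.6-fold). At TKT, which encodes the transketolase of the pentose phosphate pathway, the host peak at chr3:53270478-53270590 measured 1398 bp in control, 10137 bp after 30 min and 27732 bp after 1 h. It was 19.8-fold wider at 1 h, joined 13 control peaks, and 25006 of the 26334 bp added had been under control Pol II. SPSB1, an adaptor of a ubiquitin ligase, had 288 bp, 1734 bp and 6395 bp. RUNX1, a transcription factor gene, had 177 bp, 1290 bp and 5446 bp at the first of its 3 members, which with like limits was 586 bp in control. SKI, which encodes a repressor of SMAD proteins, had 192 bp, 440 bp and 3113 bp. At SKI 156 of the 2921 bp added had been under control Pol II, so nearly all of the new width was newly called. A site at chr11:65328169-65328248 had 466 bp, 579 bp and 7282 bp.

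The 5 largest outward shifts of a single edge at 1 h, at SLC2A1 (2 members), CTSD, TKT and HMGA2, ran downstream, in the direction of transcription. SLC2A1, the glucose transporter GLUT1, had 3 members on separate control peaks of 4211, 5116 and 11946 bp, and at 1 h all 3 lay on a single peak of 39899 bp. From the member nearest the start, at chr1:43424401-43424479, the downstream edge moved out by 34692 bp. From the member farthest downstream the upstream edge moved by 14075 bp and the downstream edge by 13878 bp. With like limits the control peak of that member was 25439 bp, and its log2 width ratio at 1 h was 0.65. CTSD, the lysosomal protease cathepsin D, had 5561 bp, 8854 bp and 32578 bp, with its downstream edge 26799 bp out at 1 h, and 26205 of the 27017 bp added had been under control Pol II. HMGA2, an architectural chromatin protein gene, had 6828 bp, 6731 bp and 21939 bp, with the downstream edge out by 15102 bp and the upstream edge by 9 bp.
CDKN1A, the p53-induced CDK inhibitor p21, had 3001 bp, 3001 bp and 13269 bp at chr6:36647499-36647583. Its width was the same at 30 min, and at 1 h its downstream edge lay 9004 bp farther out and its upstream edge 1264 bp. LMNA, the gene of lamin A and C, had 3060 bp, 5192 bp and 16942 bp, and its downstream edge moved 14018 bp out while its upstream edge moved by -136 bp. At the SLC2A1 member nearest the start 34482 of the 35688 bp added at 1 h had been under separate control Pol II peaks, at HMGA2 14629 of 15111 bp, at LMNA 13481 of 14018 bp and at CDKN1A 7986 of 10268 bp.

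**Figure D5:**
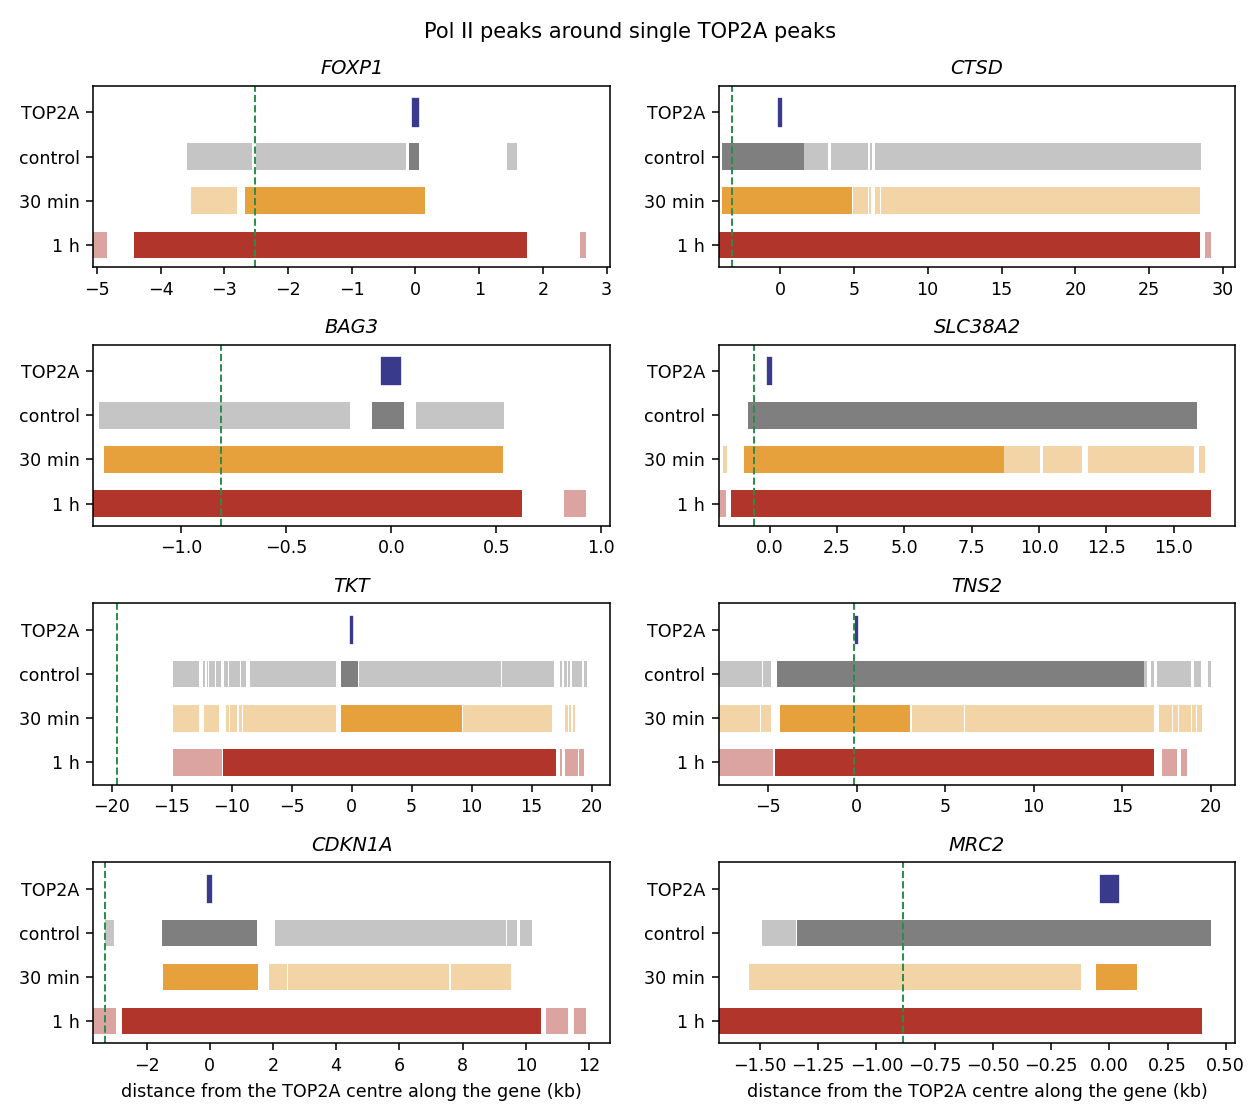
Pol II peaks in control, merbarone 30 min and merbarone 1 h around the TOP2A peak at 8 genes, by distance from the TOP2A centre along the gene (horizontal axis, kb). Full colour marks the Pol II peak that holds the member, pale colour marks other Pol II peaks, the top row is TOP2A and the dashed line is the known gene start; at TKT the host peak is 1398 bp in control and 27732 bp at 1 h, and at TNS2 it is 20700 bp in control and 7369 bp at 30 min.

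At the sites of the largest falls at 30 min the peak was wide again at 1 h. The member at chr17:27054383-27054462, just upstream of TLCD1, a gene of a membrane protein, had 3284 bp in control, 210 bp after 30 min and 3181 bp after 1 h. Its control span stayed 93.6% covered at 30 min, in 4 parts. MRC2, an endocytic collagen receptor gene, had 1776 bp, 179 bp and 2076 bp at chr17:60705611-60705683, with 78.7% of its control span covered at 30 min in 2 parts. TNS2, a focal adhesion gene with one of the 5 widest control peaks, had 20700 bp, 7369 bp and 21372 bp, and 98.5% of its control span stayed covered at 30 min in 3 parts. The site at chr7:25020960-25021032 had 2833 bp, 241 bp and 3702 bp, but with like limits 2164 bp at 30 min. Among the other 7 of the 10 largest falls, DPYSL3 and BCL2L11 were less than 1.6-fold narrower with like limits (-0.41 and -0.65 on the log2 scale) and LRIG1 was wider (0.72). TRIOBP, chr5:43065161-43065239, ZNF148 and the first ZMIZ1 site were narrower at 30 min in both settings.

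At 8 of the 10 largest falls at 1 h the control span was covered by 2 or more separate peaks. At NETO2, a kainate receptor auxiliary subunit, the host peak measured 1661 bp in control, 1491 bp after 30 min and 237 bp after 1 h. STIM2, a calcium sensor of the endoplasmic reticulum, had 1549 bp, 1716 bp and 310 bp. SGPP1, a sphingosine phosphate phosphatase gene, had 1007 bp, 1120 bp and 233 bp. At these 3 genes TOP2A lay near an end of the control peak, that end moved by -97, 66 and 35 bp, and the far edge moved by -1327, -1305 and -809 bp. The control span stayed covered over 67.1%, 89.0% and 91.6% of its length, in 2 parts each. The member at chr8:124286007-124286086 had 1811 bp, 1913 bp and 190 bp. ZMIZ1, a SUMO ligase cofactor gene, had members that changed in opposite directions at 1 h: at chr10:80873133-80873247 the widths were 783, 214 and 9186 bp, and at chr10:80920156-80920234 they were 6509, 6024 and 1638 bp. The remaining largest falls at 1 h were at PPM1H, TLE4, a chromosome 8 site, PDXDC1 and a chromosome 2 site, with 1 h peaks of 184 to 648 bp. The largest inward shifts of an edge were at this second ZMIZ1 site (-3243 bp), at MAZ (-2998 bp; log2 width ratio 0.25 as deposited and -0.63 with like limits) and at SMC4 (-2022 bp), a condensin gene. At 1 h their control spans stayed covered over 83.4% (8 parts), 97.7% (3 parts) and 91.7% (2 parts) of their length.

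The widest control peak with members was over NEAT1, a long noncoding RNA that scaffolds paraspeckles. Its 2 members shared 1 peak of 30505 bp in control, 31926 bp after 30 min and 33629 bp after 1 h, which held 7 TOP2A peaks in all. THBS1, a secreted matrix glycoprotein, had 16953, 12291 and 20123 bp, and SLC38A2, an amino acid transporter induced by ATF4, had 16668, 9630 and 17806 bp. EPHA2, an ephrin receptor, had 2 members on 1 peak of 13508, 13557 and 20003 bp. The narrowest control peaks were 137 bp at PCDH7, a protocadherin, and 144 bp at a chromosome 8 site, followed by FOXP1, BAG3 and TBX2.

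By gene group, the lists below hold 1 to 37 genes with a checked position, and their members were described by counts beside the 28.2% of all members that were at least 1.5-fold wider at 1 h. Over the 233 genes with a checked start that were listed without looking up the members' positions, 61 (26.2%) carried 1 member or more. Counts of carriers in the short lists below were not tested against that share. Of 37 immediate-early genes and their feedback inhibitors, 12 carried 16 members. The 16 members lay on 12 distinct control Pol II peaks, because members of FOSL1, CCN1 and ZFP36L1 share one. For all 16 the host peak was wider at 1 h than in control, as for 781 of all 955 members. At least 1.5-fold was reached by 9 of the members, on 7 of the distinct peaks. The median log2 ratio over members was 0.75 at 1 h and 0.11 at 30 min. HBEGF, an EGF receptor ligand, had 672 bp, 989 bp and 1401 bp. NFKBIA, the inhibitor of NF-kappaB, had 1972 bp, 2215 bp and 6279 bp. FOSL1, an AP-1 subunit, had 2 members on 1 peak of 5541, 5972 and 12987 bp. CCN1 also had 2 members on 1 peak, of 5109, 4934 and 10130 bp. DUSP5 and DUSP6, phosphatases of ERK, had log2 ratios of 0.88 and 0.38 at 1 h. The 3 members on ZFP36L1, which encodes a protein that speeds mRNA decay, shared 1 peak of 12011, 8089 and 12294 bp. At SPRY2, an inhibitor of receptor signalling, the log2 ratio at 1 h was 0.83 as deposited and -0.03 with like limits, so its direction depends on small gaps.

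Of 9 cyclins, CDKs and their inhibitors, 4 carried a member, and all 4 host peaks were at least 1.5-fold wider at 1 h. CCND1, cyclin D1, had 13423 bp, 14524 bp and 21995 bp, and CDK6 had 2052 bp, 2622 bp and 4977 bp. CDKN1A is described above. WEE1, a kinase that inhibits CDK1, had 1916, 3292 and 3719 bp but 3368, 3292 and 3719 bp with like limits, where it is no longer 1.5-fold wider. Of 9 p53 targets 3 carried a member. Besides CDKN1A these were PMAIP1, a BH3-only gene, at 2047, 2653 and 3181 bp, and PLK2, a polo-like kinase, at 12494, 11216 and 12924 bp.

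Of 12 genes of glucose use, 4 carried 6 members, 3 of which were those of SLC2A1. H6PD had 1022, 1256 and 1281 bp, ALDOA, an aldolase, had 4700, 4768 and 4776 bp, and ENO1, an enolase, had 3953, 3216 and 3476 bp, with a log2 ratio at 1 h of -0.19 as deposited and -0.60 with like limits. The 3 members past 1.5-fold at 1 h were therefore those on the single SLC2A1 peak. Of 25 matrix genes, 7 carried 8 members. FN1, fibronectin, had 2905, 2256 and 7466 bp, and SERPINE2, a protease inhibitor, had 933, 1186 and 1991 bp, and both were at least 1.5-fold wider at 1 h, like the CCN1 peak above. LAMC1, a laminin chain, had 2382, 1248 and 2438 bp. SERPINH1, the collagen chaperone, had 5265, 3130 and 4779 bp. LAMC1 and SERPINH1 were at least 1.5-fold narrower at 30 min, LAMC1 only as deposited (-0.53 on the log2 scale with like limits).

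Of 19 cytoskeleton genes 4 carried a member. PFN1, the actin monomer binder profilin, had 3159 bp, 10765 bp and 12005 bp. Its downstream edge moved 8282 bp out at 30 min, where the host peak joined 2 control peaks. Of the 8282 bp added then, 8083 bp had been under control Pol II. TPM1, tropomyosin, had 10195, 10203 and 12701 bp, MYH9, a non-muscle myosin, had 3992, 3314 and 4050 bp, and RHOA had 1935, 2637 and 2272 bp. Of 12 chaperone genes 3 carried a member: BAG3, SERPINH1 and HSPD1, the mitochondrial chaperonin, at 2256, 2238 and 2368 bp. Of 11 ATF4 and stress genes 2 did, SLC38A2 and DDIT4, an inhibitor of mTOR signalling, at 5048, 4545 and 4910 bp. Of 3 topoisomerase genes only TOP2B did, at 1758, 1680 and 1979 bp, and of the pause release genes HEXIM1, which holds the kinase P-TEFb inactive, at 4713, 4815 and 6632 bp, a log2 ratio at 1 h of 0.49 as deposited and 0.00 with like limits. CTSD was the single carrier among 3 lysosome genes and NEAT1 among 2 noncoding RNAs, and none of the 4 sterol and lipid genes and 6 translation genes of these short lists carried a member. Other genes of these kinds, named later from members' positions, did, such as EEF1G, RPL13A, EIF4E, SCD and ELOVL6.

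The members were also split by the width of the TOP2A peak. At the smallest TOP2A width, 258 members had a median control Pol II width of 1376.5 bp (1268 to 1520 bp) and 27.1% of them (22.1 to 32.9%) were at least 1.5-fold wider at 1 h. With TOP2A peaks of 100 bp or more, 320 members had 1377 bp (1222 to 1465 bp) and 29.4% (24.7 to 34.6%). The 377 members between had 1280 bp (1218 to 1406 bp) and 27.9% (23.6 to 32.6%). The intervals overlap throughout.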

How the data were processed

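Per the submitters' processing notes, reads were aligned with Bowtie 1.2.0 to hg19, peaks were called with MACS2 and deepTools 2.4.1 was used. The version and settings of MACS2, and the way libraries were pooled, are not stated there. The authors deposited peak positions in bp, another kind of value than counts or signal: start and end only, 1 list per condition. IgG libraries were not analysed here.

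Members and lists were chosen with earlier results of these data known. A member's Pol II peak is the one overlapping it by most bases. Medians have exact order-statistic intervals and shares Wilson intervals, both at 95%. They cover counting error, and peaks near each other share their source. A lasting control peak overlaps a peak in both merbarone lists, and its partner is the one sharing most bases. No condition could be tested, since no list has replicates.

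The hg19 gene spans (590) came from general knowledge. A span was used where an end's offset to RefSeq GRCh38.p14 matched a neighbour's or its own other end's within 500 bp (569; start matched, 513). Of the 590, 327 were added to name members and were kept out of distances to starts and of lists, but enter the edge shifts given for all named genes. No coordinate was converted. Named members were the extremes of width, edge and TOP2A width, the ones at the isolation limit, and those on listed genes; LMNA was chosen after its values were seen.

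Overlap functions were tested on simulated data and against bedtools. Scripts ran on Python 3.11.15 (numpy 2.4.6; pandas 2.3.3; scipy 1.17.1; matplotlib 3.10.9).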

Additional observations from a re-analysis of the deposited data

How the results depend on the processing

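Every median shift that was positive with an interval above 0 stayed positive in all 7 alternatives. With like limits, that is, with all Pol II lists held to the smallest gap and width of the 1 h list, the median log2 width change at 1 h was 0.19, the share at least 1.5-fold wider 23.2%, and the near and far edge shifts at 1 h were 71 and 63 bp. With Pol II peaks within 1 kb joined, 69.9% of members lay in the middle 60%, the width change was 0.02 at 30 min and 0.15 at 1 h, 23.2% were at least 1.5-fold wider at 1 h, the near edge moved by 8 bp (-1 to 15 bp) at 30 min and 70 bp at 1 h, and the far edge by 59 bp at 1 h. The far edge at 30 min, whose interval spans 0, was -5 bp there. Isolation by 500 bp or 5 kb (1033 and 889 members), at least 50% of the TOP2A peak covered (932), TOP2A peaks above the smallest width (697) and, chosen after seeing the data, members alone on their control Pol II peak (919) kept all values within the intervals reported. The number narrower at 1 h was 41 with like limits, against 27 as deposited.

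No paired analysis was possible because each condition has 1 list, and leaving out a replicate was not possible for the same reason. Depth is unknown, and depth and treatment cannot be told apart. Merbarone at 1 h has no matched vehicle.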

Other observations

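Members were spread over 23 chromosomes. Chromosome 1 held 93 members and chromosome 10 held 80, or 8.38% of the members against 5.48% of the control Pol II peaks. Per 1000 control Pol II peaks there were 21.6 members on chromosome 4, 16.6 on chromosome 10, 11.4 on chromosome 1 and 3.35 on chromosome 19. The median log2 width change at 1 h was 0.28 on chromosome 4, 0.29 on chromosome 10, 0.29 on chromosome 1 and 0.26 on chromosome 19.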
